A study of Mus musculus with 2 samples.

Results

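The 300 spots described here were the richest in 5 contractile transcripts in a pair of sections through mouse skull defects, 150 from each. A spot is a small patch of the section that shares 1 barcode on the capture array, and it may hold several cells of different types. Spots with at least 3667 UMIs in the section named Blank, or 4690 in the section named Col_nHA, were kept, where a UMI (unique molecular identifier) stands for 1 captured transcript. This left 2249 and 2471 spots, 4720 of the 9984 barcodes in all. Within each section the kept spots were ranked by the share of their UMIs that came from Cnn1, Actg2, Acta2, Tagln and Myh11 together, and the first 150 were taken, with ties in barcode order. They were compared with the remaining 2099 Blank and 2321 Col_nHA spots and between the sections.

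The tissue came from calvarial defects, holes made in the roof of the skull. The Blank defect received no collagen/nHA material and the Col_nHA defect was repaired with it, and both were harvested on day 7 and frozen in embedding medium. The labels used here name no strain, age or allele, and each group was 1 library. There were therefore no replicates and no p-value was computed: the treatment cannot be told apart from the animal, the position of the section or the library. Levels are UMIs summed over a group of spots per 1000000 UMIs (CPM), and ratios are of such levels, with exact 95% intervals in brackets that cover counting error only. Fewer cells of a type and less RNA per cell cannot be told apart in such values.

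Acta2 encodes the alpha actin of smooth muscle, Actg2 its gamma actin, Tagln transgelin, Cnn1 calponin and Myh11 the smooth muscle myosin heavy chain. Vascular smooth muscle makes these proteins to hold vessel tone. In healing wounds, fibroblasts that become myofibroblasts also switch on Acta2 and Tagln, contract the wound and lay down collagens, tenascin C and periostin, while Myh11, Lmod1 and Synpo2 are better known from mature smooth muscle.

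The libraries held 34868368 UMIs in Blank and 45137685 in Col_nHA. The top-ranked spots were deeper than the remaining ones, with a median of 18361.5 against 9450 UMIs in Blank and 21526.5 against 13330 in Col_nHA. Fewer of them were rich in neighbouring tissues: 11 of 150 in Blank (7.33%) and 2 of 150 in Col_nHA (1.33%) had over 2% of their UMIs in genes of skeletal muscle, skin, fat and the like, against 29.6% and 14.5% of the remaining spots. Mitochondrial transcripts took 2.86% of UMIs in the top-ranked and 3.76% in the remaining Blank spots, and 1.83% and 4.85% in Col_nHA. The libraries list the same 4992 array barcodes, so a barcode shared by top-ranked spots of both (21 of them) is a position on the array and not a shared cell.

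The 2 promoters below are shown because they belong to the genes at either end of the results: Myl9, higher in the top-ranked spots of both sections, and Ankrd1, which ran in opposite directions. Serum response factor is known to bind CArG boxes of contractile genes, and TEAD factors, the partners of YAP, to bind MCAT elements. The sequences are from RefSeq on GRCm38.p6, 5′ to 3′ on the gene's strand, and stop before the first annotated base of the gene. Capitals mark a CArG box in Myl9 (chr2:156775214-156775407, plus strand) and MCAT elements, spelled CATTCC or GGAATG, in Ankrd1 (chr19:36119845-36120094, minus strand).
Myl9: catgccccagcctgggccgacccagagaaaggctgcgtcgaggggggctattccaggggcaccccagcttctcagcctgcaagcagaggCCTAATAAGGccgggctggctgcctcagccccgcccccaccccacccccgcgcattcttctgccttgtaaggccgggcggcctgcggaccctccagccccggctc
Ankrd1: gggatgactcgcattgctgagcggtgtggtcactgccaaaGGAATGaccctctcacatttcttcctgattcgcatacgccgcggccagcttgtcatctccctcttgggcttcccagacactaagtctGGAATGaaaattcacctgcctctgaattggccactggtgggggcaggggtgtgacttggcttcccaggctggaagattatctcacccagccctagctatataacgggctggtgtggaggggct
Both strands of the 250 bases before each annotated start were searched, and the 2 motifs share no position in these promoters. The Myl9 box begins 161 bases before the start that the RefSeq table uses, and the Ankrd1 elements 210 and 123 bases before its start. The Myl9 stretch shown has 194 bases, fewer than the 250 searched, and the Myl9 start used lies past its end. A CArG box was in 482 of 32851 such windows (1.47%) and an MCAT element in 4153 (12.6%). Of the ranking and contractile apparatus genes with a window, Myl9 was the only one with a CArG match, and a match says no more than that these letters are present. Tagln, Actg2 and Myh11 had no entry.

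The share of UMIs in the ranking genes declined with rank and had no step at rank 150. In Blank it was 0.709% in the first spot, 0.220% at the median of the 150, 0.177326% in the last spot taken and 0.176954% in the first left out, against a median of 0.0423% in the remaining spots. In Col_nHA these shares were 0.600%, 0.389%, 0.335809%, 0.335804% and 0.0794%. The limit thus parts near-equal spots: 51 remaining Blank and 71 remaining Col_nHA spots lay within 10% of the last share. The top-ranked spots held 32.1% of the 5 genes' UMIs on 10.7% of all UMIs of the kept Blank spots, and 27.4% on 8.40% in Col_nHA. At the same share limit the sections were far apart, since 621 kept Col_nHA spots reached the last Blank share and 12 Blank spots reached the last Col_nHA share.

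**Figure D1:**
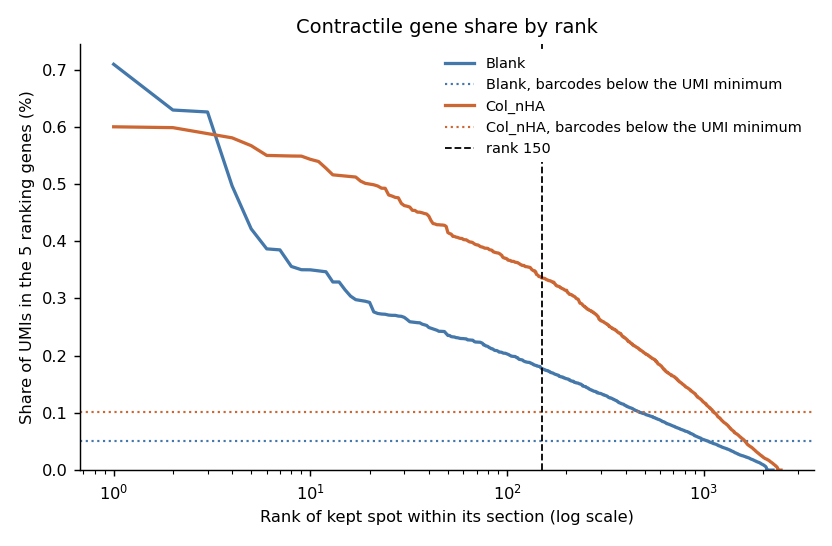
Share of UMIs in the 5 ranking genes (%, vertical axis) against the rank of each kept spot in its section (log axis), with rank 150 as a dashed line and the share in barcodes below the UMI minimum as dotted lines. The first Blank spot (0.709%) lies above the first Col_nHA spot (0.600%), the last spots taken lie the other way round (0.177326% and 0.335809%), and neither line steps at rank 150.

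The ranking genes chose the spots, so their levels are a description. Acta2 (chromosome 19, 34240336 to 34255585, GRCm38.p6) made up 70.0% of the 5 genes' UMIs in the top-ranked Blank spots and 68.5% in those of Col_nHA, and was the most counted of the 5 in 149 and 150 of them. Its level ran from 789 through a median of 1519 to 5040 CPM in Blank and from 1427 through a median of 2740 to 4547 CPM in Col_nHA. Every top-ranked spot held Acta2, and the Col_nHA median lay above the upper quartile of Blank (1797 CPM).

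Tagln ran from 96.6 through a median of 458 to 1464 CPM in Blank and from 154 through a median of 568 to 1547 CPM in Col_nHA. Actg2 was counted in 127 Blank spots, with a median of 136 CPM, and in 148 Col_nHA spots, with a median of 414 CPM. Cnn1 was counted in 90 Blank spots (median 35 CPM) and 140 Col_nHA spots (median 224 CPM). Tagln overlapped widely between the sections, whereas at full depth Cnn1 was missing from many Blank spots and counted in nearly every Col_nHA spot. With every spot thinned to 3000 UMIs, 16.7% of the top-ranked Blank and 50% of the top-ranked Col_nHA spots held a Cnn1 UMI.

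Myh11 (chromosome 16, 14194527 to 14292188) was the sparsest of the 5. It was counted in 25 of the 150 Blank and 29 of the 150 Col_nHA spots, on 122 and 60 UMIs, and 10 spots held 78.7% and 68.3% of those UMIs. To see each ranking gene in spots that it had no part in choosing, the spots were ranked by the other 4. Myh11 was then 2.32 (1.86 to 2.87) times its level in the remaining spots in Blank and 1.42 (1.03 to 1.9) in Col_nHA.

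The same step gave 4.89 (4.02 to 5.94) and 7.14 (6.5 to 7.83) for Cnn1, and 3.96 and 4.71 for Actg2. For Tagln it gave 3.34 and 3.37, and for Acta2, where 98 and 94 of the 150 spots were still taken, 2.97 and 3.27. Each ranking gene was thus higher in spots chosen by the others, and Myh11 had the smallest ratio in both sections. How reads shared by near-identical actin genes (Acta2, Actg2, Acta1, Actc1) were assigned is not stated, so their split is uncertain.

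Over all genes, 48 of 9815 with at least 10 CPM (0.489%) were at least 2-fold higher in the top-ranked than in the remaining Blank spots, and 792 (8.07%) at least 2-fold lower. In Col_nHA 161 of 9719 (1.66%) were higher and 645 (6.64%) lower. These counts leave out the ranking genes, and as the ranking used the same spots they are a description. The median log2 ratio over all these genes was -0.12 in Blank and 0.12 in Col_nHA. Members of gene lists are counted below from 5 CPM, and on that scale 0.654% of genes were 2-fold higher and 10.3% lower in Blank, and 1.93% and 8.07% in Col_nHA.

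Of the 14 measured genes of the smooth muscle contractile apparatus, 1 was at least 2-fold higher (Myl9) and 2 lower (Des and Synpo2) in Blank, and 3 were higher (Myl9, Csrp1 and Lmod1) and the same 2 lower in Col_nHA. The list's median log2 ratio was 0.51 in Blank and 0.59 in Col_nHA. Myl9, a myosin regulatory light chain (chromosome 2, 156775408 to 156781657), was the highest of them in both sections. It ran from 0 through a median of 516 to 1839 CPM in the top-ranked Blank spots, where the remaining spots had a median of 127 CPM, and from 287 through a median of 982 to 2197 CPM in Col_nHA, against 209 CPM. Most top-ranked spots lay above the remaining median, and the ratio was 3.08 (2.93 to 3.25) in Blank and 3.57 (3.43 to 3.71) in Col_nHA. With every spot thinned to 3000 UMIs, 78% of top-ranked and 36.4% of remaining Blank spots held a Myl9 UMI, and 96% and 50.3% in Col_nHA (unthinned 94.7%, 67.8%, 100% and 83.5%).

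Csrp1, a LIM-domain protein of actin bundles, had a ratio of 1.94 (1.79 to 2.09) in Blank and 2.7 (2.57 to 2.83) in Col_nHA. Flna (filamin A, an actin crosslinker) was 1.54 and 1.95, Pdlim7 1.7 and 1.92, Cald1 (caldesmon) 1.52 and 1.88, and Smtn (smoothelin) 1.47 and 1.51. Mylk, the kinase that phosphorylates the light chain, was close to even at 1.06 (0.909 to 1.23) and 1.17 (1.0 to 1.36). Apart from Csrp1 in Col_nHA these were differences of less than 2-fold.

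Markers of mature smooth muscle were mixed. Des (desmin, the intermediate filament of muscle) was lower in the top-ranked spots, at 0.153 (0.124 to 0.187) in Blank and 0.329 (0.28 to 0.384) in Col_nHA, and was counted in 50 and 67 of the 150 spots. Synpo2 (an actin-bundling protein of muscle) was 0.31 (0.212 to 0.438) and 0.213 (0.138 to 0.316), in 19 and 16 spots. Lmod1 (leiomodin 1) was higher, at 1.97 (1.16 to 3.19) and 2.67 (1.81 to 3.85), on 21 UMIs in 10 Blank spots and 37 UMIs in 30 Col_nHA spots. Each of these genes was without a UMI in the majority of the top-ranked spots of both sections.

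The Des and Synpo2 ratios depended on which spots were left in, and Des is also a skeletal muscle gene. All 12 skeletal muscle genes were at least 2-fold lower in the top-ranked spots of both sections, with median log2 ratios of -3.17 and -3.69. Without spots rich in other tissues, Des was 0.366 in Blank and 1.57 in Col_nHA, and Synpo2 0.463 and 0.891. Against remaining spots with a like share of myofibroblast matrix UMIs, Des was 0.37 and 1.62, Synpo2 0.503 and 1.24, and the skeletal muscle list in Col_nHA had a median log2 ratio of 0.36.

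Tropomyosins, which muscle of both kinds uses, differed likewise: Tpm2 went from 1.02 and 0.93 to 1.76 and 2.42 without the spots rich in other tissues, and Tpm1 from 1.38 and 0.96 to 1.71 and 2.04. Des and Synpo2 were thus lower in Blank under each of these choices, while in Col_nHA their direction rested on the spots compared.

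**Figure D2:**
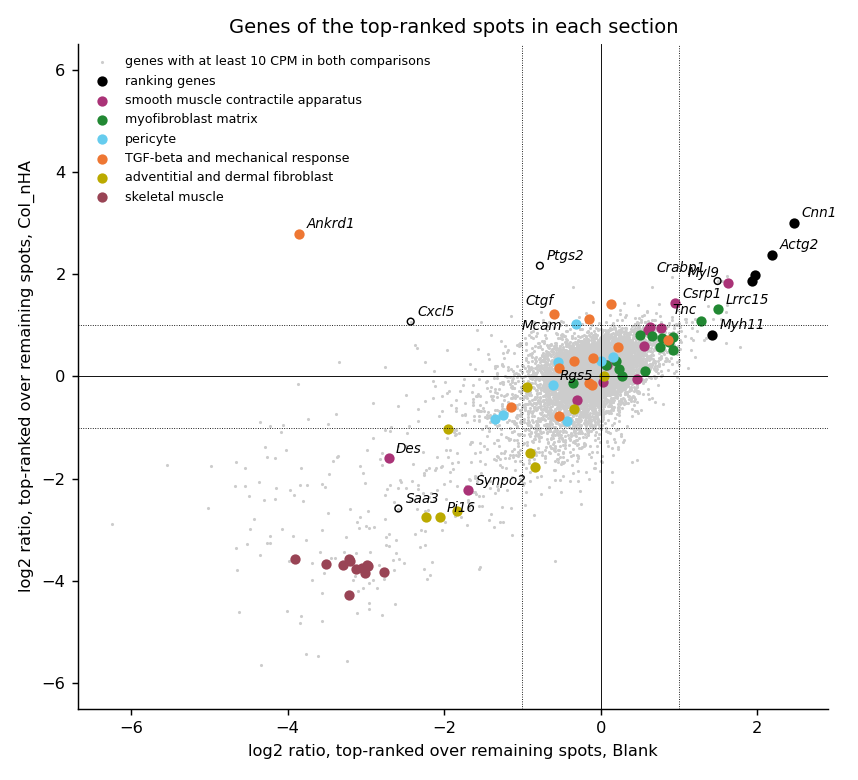
Log2 ratio of top-ranked over remaining spots for each gene with at least 10 CPM in both comparisons, Blank on the horizontal and Col_nHA on the vertical axis, with dotted lines at 2-fold. Myl9, Lrrc15 and Tnc lie at the upper right (log2 ratios over 1 in both sections), and Ankrd1 and Cxcl5 at the upper left, below -1 in Blank and above 1 in Col_nHA.

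Several mature smooth muscle genes were concentrated in a few top-ranked Blank spots, in values summed over those spots. The 10 spots with most Myh11 UMIs in each section were picked after the values were seen, so what follows describes them. In Blank they had 4 to 23 Myh11 UMIs each, against at most 3 in the other 140 spots, and all were among the first 50 ranks. They held 14 of 21 Lmod1 UMIs, 21 Synpo2 UMIs against 12 in the other 140, and all 6 UMIs of Pln (phospholamban, a regulator of the calcium pump). Kcnmb1, another gene of the contractile apparatus list, had 0 UMIs in the 10 and 4 in the other 140. The highest Lmod1 count in a single top-ranked Blank spot was 9 UMIs. Whether single spots held these genes together was not examined. Des was 19.8 (12.7 to 30.3) times its level in the other 140 spots, Mylk 6.89 (4.62 to 10.0) and Notch3, a receptor of vessel wall muscle and pericytes, 7.85 (4.64 to 12.7).

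The same 10 Blank spots were poor in wound matrix transcripts. Lrrc15 was 0.0768 (0.0249 to 0.18) times its level in the other 140 spots, Tnc 0.106 (0.0548 to 0.186) and Postn 0.168. Genes of vessel lining and outer wall were higher, with Pecam1 of endothelium at 6.03 (4.06 to 8.71), Eln (elastin) at 3.41 and Pi16 of adventitial fibroblasts at 31.2 (23.1 to 42.1). Skeletal muscle genes were higher as well: Acta1 was 27.7 times as high, and the share of UMIs in the skeletal muscle list ran from 0.0156% through a median of 1.02% to 2.66%. Of the 10 spots, 6 had over 1% of their UMIs in that list. Their median depth was 8330.5 UMIs against 19074.5, and the part of depth and of skeletal muscle in these differences was not tested.

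In Col_nHA the 10 spots had 1 to 11 Myh11 UMIs, and further spots with 1 UMI were left among the other 140. Synpo2 was 6.88 (2.68 to 16.5), Des 4.49 (3.1 to 6.38) and Rgs5 5.25 (4.36 to 6.29) times the level of the other 140, while Lrrc15 was 0.616 and Tnc 0.606. Of these 10, 1 had over 1% of its UMIs in skeletal muscle genes, at 16.1%. The 10 held 9 Synpo2, 44 Des and 737 Acta1 UMIs, against 303 Acta1 UMIs in the other 140. The highest counts in a single top-ranked Col_nHA spot were 8 Synpo2, 32 Des and 710 Acta1 UMIs. The Synpo2 and Des ratios thus rest largely on a single muscle-rich spot, and do not show mature smooth muscle genes together across the 10. Summed over the 10, Mylk was 3.31 (2.26 to 4.75), Notch3 3.69 (2.5 to 5.34) and Eln 8.05 (6.71 to 9.64) times as high. Pln had 4 against 0 UMIs, while Lmod1 was 2.37 (0.807 to 5.76), Smtn 0.951 and Cnn1 1.06. How these were spread over the 10 spots was not examined. The highest Rgs5 count in a top-ranked Col_nHA spot was 79 UMIs, beside 172 in the 10. Whether that spot was among the 10 was not examined. The wound matrix genes were thus nearer to the other spots than in Blank, although that difference was not tested.

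Without the 10 spots, which lowers Myh11 by construction, Myh11 was 0.59 (0.381 to 0.879) of the remaining spots in Blank and 0.603 (0.359 to 0.955) in Col_nHA, and Lmod1 0.675 (0.264 to 1.45) and 2.42 (1.59 to 3.58). Cnn1 was 5.18 and 8.0, Myl9 2.98 and 3.51, and Lrrc15 2.91 and 2.56. Since Myh11 was counted in few top-ranked spots of either section, the name smooth muscle is not used here for the top-ranked spots as a whole.

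Regulators of contractile genes differed little in Blank. Of 9 measured, none was 2-fold higher in either section, and Mef2c and Fhl1, which muscle also uses, were lower in both. Myocd (myocardin, the coactivator of smooth muscle genes) had 0 UMIs in the top-ranked spots. Srf, its DNA-binding partner, was 0.878 (0.714 to 1.07) in Blank and 1.73 (1.52 to 1.98) in Col_nHA, Tead1 1.04 and 1.6, and Prrx1, a factor of skull mesenchyme, 1.45 and 1.58. Of the receptor and channel genes of smooth muscle, 8 were measured in Blank and 6 in Col_nHA; none was 2-fold higher, and Agtr1a, an angiotensin receptor, was lower in Blank.

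Pericytes wrap capillaries and share several genes with smooth muscle. Of 10 pericyte genes, none was 2-fold higher and Kcnj8 and Abcc9 were lower in Blank, and 1 (Mcam) was higher in Col_nHA. Rgs5, a defining pericyte gene, ran from 0 through a median of 119 to 1046 CPM in Blank and from 0 through a median of 96.7 to 4442 CPM in Col_nHA, and its ratio was 0.655 (0.591 to 0.724) and 0.889 (0.815 to 0.968). Rgs5 was thus present in most top-ranked spots, but at no higher level than elsewhere, and 10 Col_nHA spots held 40.5% of its UMIs. Mcam, an adhesion molecule of pericytes and endothelium, was 0.803 (0.686 to 0.937) and 2.03 (1.88 to 2.19). The 13 endothelial genes had median log2 ratios of -0.17 and 0.46, none at 2-fold higher, and the Blank median was 0.06 with the mean of per-spot CPM.

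Wound matrix genes accompanied the contractile transcripts in both sections. Of the 15 genes of the myofibroblast matrix list, 14 had a ratio above 1 in each section and Tnc and Lrrc15 were past 2-fold in both, with list medians of 0.66 and 0.57 on the log2 scale. Lrrc15, a membrane protein known from TGF-beta-driven fibroblasts (chromosome 16, 30269302 to 30283254), ran from 0 through a median of 583 to 1316 CPM in Blank, where the remaining median was 155 CPM, and from 0 through a median of 672 to 2448 CPM in Col_nHA, against 209 CPM. It was counted in 134 and 148 of the 150 spots, and its ratio was 2.83 (2.7 to 2.97) and 2.48 (2.38 to 2.6).

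Tnc (tenascin C, chromosome 4, 63959785 to 64047015) ran from 0 through a median of 772 to 5413 CPM in Blank and from 56.2 through a median of 1088 to 5108 CPM in Col_nHA, with ratios of 2.44 (2.35 to 2.53) and 2.12 (2.06 to 2.19). Postn (periostin) was 1.91 and 1.42, Thbs2 1.9 and 1.7, Col12a1 1.84 and 1.59, and Lox, which crosslinks collagen, 1.41 and 1.74. The fibrillar collagens were nearer to even, with Col1a1 at 1.05 and 1.17 and Col3a1 at 1.21 and 1.01. Fap, a protease of activated fibroblasts, was the member below 1, at 0.786 (0.658 to 0.933) and 0.92 (0.75 to 1.12). Against remaining spots of like matrix share, Myl9 was 2.48 and 2.64, Lrrc15 2.17 and 1.92, and Tnc 1.92 and 1.57, so these genes remained higher at a matched matrix share.

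In all, 22 genes were at least 2-fold higher in both sections, which is 45.8% of the 48 in Blank and 13.7% of the 161 in Col_nHA. Col7a1, the collagen of anchoring fibrils, was 3.07 (2.83 to 3.32) and 2.65 (2.49 to 2.81). Crabp1, which binds retinoic acid, was 2.82 (2.56 to 3.1) and 3.64 (3.4 to 3.9), and was counted in 99 Blank and 129 Col_nHA spots. Msx2, a homeobox factor of skull mesenchyme, was 3.06 (2.41 to 3.85) and 3.89 (3.05 to 4.93).

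Tnn (tenascin N) was 2.7 and 2.18, Lrrc17 2.79 and 2.44, Fbn2 (fibrillin 2) 2.04 and 2.4, and Inhba, which encodes the activin A subunit, 2.59 and 2.59. Of the tendon and fascia genes, 1 was at least 2-fold higher and 1 lower of 7 in Blank, and 2 were higher and 2 lower of 6 in Col_nHA, with median log2 ratios of 0.02 and 0.09. Tnmd (tenomodulin) was 2.32 (2.18 to 2.46) and 2.18 (2.0 to 2.38), and Scx (scleraxis, a tendon factor) 1.58 (1.24 to 1.98) and 3.35 (2.77 to 4.04), but Thbs4 was 0.163 and 0.109, and Sfrp2, a secreted Wnt modulator, 1.02 and 0.315.

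**Figure D3:**
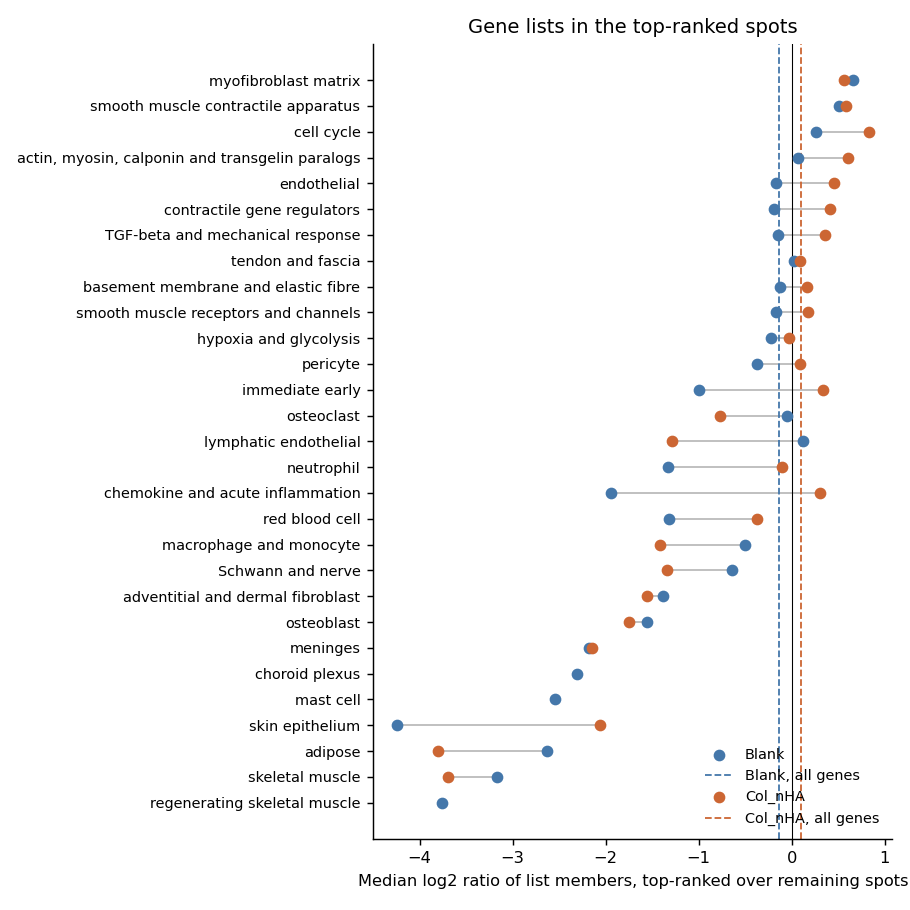
Median log2 ratio of top-ranked over remaining spots (horizontal axis) for each gene list with at least 3 measured members, 1 mark per section, with dashed lines at the medians of all genes. Myofibroblast matrix (0.66 and 0.57) and contractile apparatus (0.51 and 0.59) lie to the right in both sections, and chemokine genes lie far apart (-1.95 in Blank and 0.31 in Col_nHA).

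Genes of other fibroblasts, bone and blood cells were mostly lower. Of 10 adventitial and dermal fibroblast genes, 5 were at least 2-fold lower in Blank and 7 in Col_nHA, with Pi16 at 0.24 (0.207 to 0.278) and 0.148 (0.104 to 0.205) and Dpt (dermatopontin) at 0.281 and 0.161. Of 7 osteoblast genes 6 were lower in each section, with Bglap (osteocalcin) at 0.245 and 0.299, while Runx2, the early bone factor, was 1.61 (1.36 to 1.89) and 1.12 (0.926 to 1.35). Of 10 macrophage genes 3 were lower in Blank and 7 in Col_nHA, and Lyz2 (lysozyme) was 1.17 (1.15 to 1.19) and 0.374 (0.366 to 0.383). Skin epithelium genes were lower in 10 of 10 and 7 of 9 cases. The 6 choroid plexus genes of Blank had a median log2 ratio of -2.30, which was 0.69 without the spots rich in other tissues.

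Genes that respond to TGF-beta and mechanical load ran differently in the sections. Of 13, none was 2-fold higher and 2 were lower in Blank, and 4 were higher and none lower in Col_nHA. Ankrd1, a known target of YAP (chromosome 19, 36111965 to 36119844), whose promoter is shown above, had 3 UMIs in 3 Blank spots and 152 UMIs in 70 Col_nHA spots, with a highest level of 95.4 and 319 CPM. Its ratio was 0.0691 (0.0142 to 0.204) in Blank and 6.91 (5.6 to 8.5) in Col_nHA. The remaining Blank spots held 362 Ankrd1 UMIs, with up to 28 in a single spot, and 29.6% of these spots were rich in other tissues. All 5 measured genes of regenerating skeletal muscle were at least 2-fold lower in the top-ranked Blank spots, and 2 of 2 in Col_nHA. Whether the Ankrd1 UMIs of the remaining Blank spots lay in muscle-rich spots was not examined, so the low Blank ratio is not tied to mechanical load here. Thinned to 3000 UMIs, 0.667% of top-ranked against 2.86% of remaining Blank spots held an Ankrd1 UMI, and 14% against 2.02% in Col_nHA (unthinned 2.0%, 7.43%, 46.7% and 7.24%).

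Ctgf (CCN2, a matricellular protein) was 0.661 (0.567 to 0.766) in Blank and 2.33 (2.13 to 2.54) in Col_nHA. Cyr61 (CCN1) was 1.09 (0.97 to 1.23) and 2.68 (2.49 to 2.89). The ligand gene Tgfb1 was 0.904 and 0.92, Tgfb2 1.82 and 1.64, and Tgfb3 1.17 and 1.49. Ankrd1, Ctgf and Cyr61 were at least 2-fold higher in the top-ranked spots of Col_nHA and not of Blank, while the ligands were within 2-fold in both, and with 1 library each the difference between sections was not tested.

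Acute inflammatory genes also split by section. Of 10, none was 2-fold higher and 8 were lower in Blank, and 4 were higher and 3 lower in Col_nHA. Ptgs2 (cyclooxygenase 2, which makes prostaglandins; chromosome 1, 150100031 to 150108234) was counted in 14 Blank spots and 73 Col_nHA spots, and its ratio was 0.584 (0.341 to 0.942) and 4.48 (3.8 to 5.28). Cxcl5, a neutrophil attractant (chromosome 5, 90759298 to 90761625), was counted in 14 and 83 spots, with ratios of 0.186 (0.106 to 0.304) and 2.1 (1.9 to 2.32). Thinned to 3000 UMIs, 1.33% of top-ranked and 6.29% of remaining Blank spots held a Cxcl5 UMI. In Col_nHA these shares were 24% (17.4 to 31.6) and 17.3% (15.8 to 18.9), with overlapping intervals. A single top-ranked Col_nHA spot held 49 of the 484 Cxcl5 UMIs. For Ptgs2 the thinned shares were 1.33% and 2.33% in Blank, and 17.3% and 4.35% in Col_nHA. Of the Ptgs2 UMIs in the top-ranked Col_nHA spots, 10 spots held 49.5%. The acute phase gene Saa3 was lower in both sections, at 0.167 and 0.167. The list's Col_nHA median of 0.31 was -0.19 with the mean of per-spot CPM, so the direction of the list as a whole is not firm there.

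**Figure D4:**
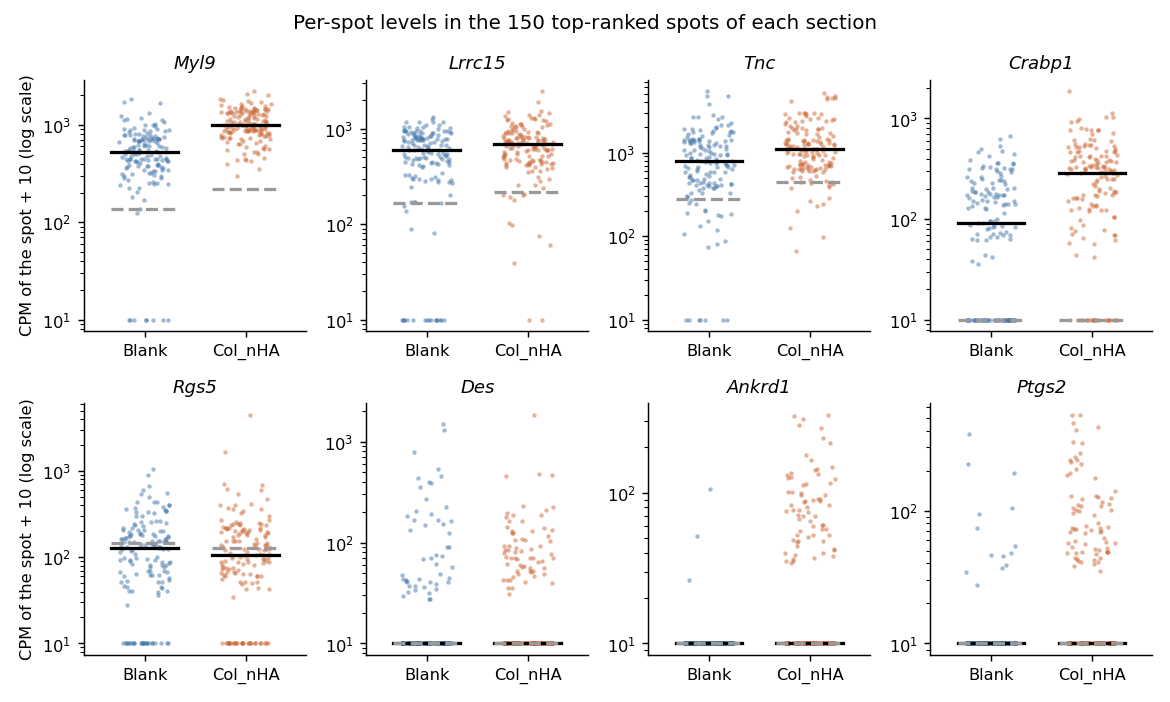
Level of 8 genes in each of the 150 top-ranked spots per section (CPM + 10, log axis), with the median of the top-ranked spots as a black line and of the remaining spots as a grey dashed line. Myl9, Lrrc15 and Tnc have medians above those of the remaining spots in both sections, and Ankrd1 and Ptgs2 are counted in 3 and 14 Blank spots but 70 and 73 Col_nHA spots.

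Cell cycle genes were higher in the top-ranked Col_nHA spots. All 12 had a ratio above 1 there, from 1.13 to 2.16, with a median of 0.83 on the log2 scale, and Cdk1, Ccnb1, Tpx2 and Rrm2 were past 2-fold. In Blank 9 of 12 were above 1, none was past 2-fold either way, and the median was 0.26. Mki67, a marker of dividing cells, was 1.19 (0.99 to 1.43) in Blank and 1.74 (1.55 to 1.95) in Col_nHA. The cycling genes thus lay nearer to even in Blank.

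Across all kept spots, the share of cell cycle UMIs had a Spearman rho with the share of ranking gene UMIs of 0.08 in Blank (2249 spots) and 0.53 in Col_nHA (2471 spots). For the apparatus genes rho was 0.43 and 0.38, for the matrix list 0.27 and 0.29, and for the adventitial list -0.35 and -0.40. Positive values of this size were not particular to the contractile and matrix lists. The endothelial list had 0.01 and 0.38, and the TGF-beta and mechanical list -0.03 and 0.41. For basement membrane genes rho was -0.16 and 0.27, and for osteoclast genes 0.27 and 0.20. The spots of a section share 1 library and the shares divide by the same totals, so these are descriptions.

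Among the top-ranked spots the contractile apparatus was highest in the first 50 ranks. In Blank the median share of UMIs in that list was 0.433% in the first 50 ranks and 0.334% in the last 50, against 0.216% in the remaining spots. In Col_nHA it was 0.629%, 0.528% and 0.278%. The matrix list hardly varied with rank in Blank, at 9.11%, 9.09% and 7.47%, and in Col_nHA it was 7.32%, 6.57% and 5.82%.

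Between the sections, 708 of 9552 genes with at least 10 CPM (7.41%) were at least 2-fold higher and 294 (3.08%) at least 2-fold lower in the top-ranked spots of Col_nHA than in those of Blank. In the remaining spots these were 156 of 9891 (1.58%) and 375 (3.79%). From 5 CPM, the scale of the lists, the top-ranked shares were 8.23% and 4.24%, and those of the remaining spots 1.86% and 4.89%. The median over all genes was 0.19 on the log2 scale in the top-ranked spots, and with median-of-ratios scaling 538 genes were higher and 387 lower.

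Of the ranking genes, Cnn1 was 4.4 (3.74 to 5.21) times as high in Col_nHA, Actg2 2.96, Acta2 1.75 and Tagln 1.32, while Myh11 was 0.479 (0.346 to 0.658). In the remaining spots these ratios were 3.05, 2.6, 1.74, 1.39 and 0.733, so the ranking genes differed between the sections outside the top-ranked spots as well. Without the 10 Myh11-richest spots of each section, Myh11 was 0.748 (0.391 to 1.4).

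Genes of the mechanical and inflammatory response lay far apart. Ankrd1 was 49.4 (16.6 to 242) times as high in the top-ranked spots of Col_nHA, on 152 against 3 UMIs, and 0.494 in the remaining spots. Cxcl5 was 29.5 (18 to 52) in the top-ranked and 2.6 in the remaining spots. Ptgs2 was 11.3 (6.95 to 19.4) and 1.47. These genes thus differed more between the sections in the top-ranked than in the remaining spots. Il1b, encoding interleukin 1 beta, was 11.9 (7.17 to 21.3) and 1.51, and Cxcl1 25.3 (6.67 to 215) on 52 against 2 UMIs, and 1.07. Il6 had 0 UMIs in the Blank spots and 21 in those of Col_nHA. Its ratio of 6.82 sets the Blank count at the floor of 3 UMIs and is not a lower limit.

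Of 7 neutrophil genes 4 were measured, and all 4 were past 2-fold higher, from 2.45 to 21.4, the highest being Cxcr2 on 22 against 1 UMIs, while the defining marker Ly6g had 1 and 0. The share of UMIs in the list ran from 0% through a median of 0.00268% to 2.09% in the top-ranked Blank spots and from 0% through 0.0142% to 0.194% in those of Col_nHA. S100a8 was 2.63, but its log2 ratio was -0.031 with the mean of per-spot CPM. Neutrophil markers moved with the inflammatory genes, and their part in these values was not tested.

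Ctgf was 3.09 (2.62 to 3.65) and Cyr61 2.61 (2.29 to 2.97) in the top-ranked spots, against 0.877 and 1.06 in the remaining ones. Of 12 cell cycle genes 9 were at least 2-fold higher, led by Rrm2, a ribonucleotide reductase subunit, at 5.44 (3.92 to 7.71), and 1 of 12 in the remaining spots. Of 13 endothelial genes 4 were higher, among them the VEGF receptors Flt1 at 3.11 (2.3 to 4.26) and Kdr at 2.74 (2.14 to 3.53), and Mcam was 4.29 (3.64 to 5.07). Arg1 (arginase 1) was 9.82 (7.51 to 13.1), with 7.94 in the remaining spots, so it differed by section there too.

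Skin epithelium genes divided, with 4 of 9 measured at least 2-fold higher in the top-ranked Col_nHA spots and 3 (Krt10, Krt15 and Lor) at least 2-fold lower. Krt10 was 0.36 (0.245 to 0.519). Krt6a was 56.7 (24 to 176), Krt14 6.96 and Krt5 6.65 times as high in the top-ranked Col_nHA spots. Without the 10 top-ranked spots of each section with most skin transcripts they were 26.7, 2.47 and 1.33, while Cxcl5 was 32.6. Krt6a was counted in 64 Col_nHA and 5 Blank spots, and 10 Col_nHA spots held 80.0% of Krt14 and 87.7% of Krt5 UMIs.

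Matrix genes were mostly lower in Col_nHA. Of 15 in the myofibroblast matrix list, 1 was past 2-fold higher (Tgfbi, at 2.2) and 10 were below 1, with Postn at 0.559 (0.543 to 0.575), and the list's median log2 ratio was -0.40 against -0.31 in the remaining spots. Lrrc15 was close to even at 1.06. Sfrp2 was 0.158 (0.148 to 0.17), with per-spot medians of 1333 CPM in Blank and 185 CPM in Col_nHA. Ccl21a, a chemokine of lymphatic vessels, was 0.0518 (0.0286 to 0.0869), with 77.3% of its Blank UMIs in 10 spots, and Tnmd was 0.438.

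Macrophage genes ran in opposite directions inside and outside the top-ranked spots, with 3 of 10 above 1 in the top-ranked and 9 of 10 in the remaining spots. Lyz2 was 0.503 (0.49 to 0.517) in the top-ranked and 1.57 in the remaining spots, and Cd68 0.641 and 1.89. Lyz2 ran from 768 through a median of 4486 to 9346 CPM in the top-ranked Blank spots and from 286 through a median of 2113 to 7452 CPM in those of Col_nHA, so the sections overlapped. The choroid plexus gene Ttr had 7340 UMIs in the top-ranked Blank spots and 0 in those of Col_nHA.

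The sections were also compared at 1 common share limit, with all 621 Col_nHA spots at or above the last Blank share against the 150 Blank spots. Acta2 was then 1.3 times as high in Col_nHA and Cnn1 2.57, while Ankrd1 was 27.6, Cxcl5 29 and Ptgs2 7.53. The smaller contractile difference thus came with differences of the response genes in the same direction.

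**Figure D5:**
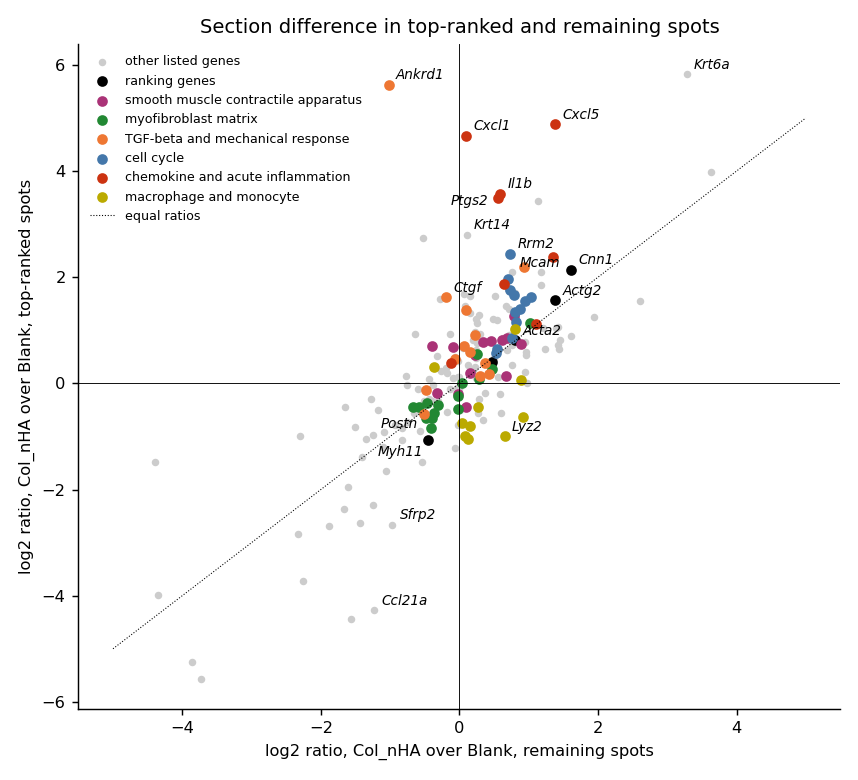
Log2 ratio of Col_nHA over Blank in the top-ranked spots (vertical axis) against the same ratio in the remaining spots (horizontal axis) for listed genes, without the choroid plexus genes at the extreme low end. Ankrd1, Cxcl5 and Ptgs2 (ratios of 49.4, 29.5 and 11.3 in the top-ranked spots) lie above the line of equal ratios, and Lyz2 (0.503) lies below it.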

How the data were processed

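The deposited matrices held raw UMI counts per gene and barcode for 31053 genes. The authors ran Space Ranger against mm10, per the submitters' processing notes, and the file headers name Cell Ranger 4; a Space Ranger version was not found in the sources. The labels speak of spatial sections, but their extraction text describes a droplet library. Images and spot positions were not used here, and spots were kept by UMI minimum alone, with no doublet caller.

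The ranked spots and the gene lists were chosen with earlier results of these data known. UMIs were summed per group of spots and scaled to CPM over all genes. Genes past 2-fold were counted from 10 CPM in either group, and list members from 5 CPM. Intervals are exact conditional binomial, and a gene with 0 UMIs was set at a floor of 3. Named genes were the 12 highest and 6 lowest ratios per section and 10 each way between sections from 50 CPM, the ranking genes, and the 2 most abundant and 2 most different members of each of 31 lists, 197 genes in all. Other members, and the Myh11-rich spots, were named after their values were seen. Shares of spots with a UMI were thinned to 3000 UMIs.

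On simulated counts for 9630 Blank genes with 200 changed, 95.6% to 95.8% of the intervals held the true ratio, and 100% of 3-fold and 0% of 1.5-fold genes were counted as past 2-fold. The 9336 Col_nHA genes gave the same shares of genes counted. These sums were drawn with counting error alone and no differences between spots. They check the computation and do not show how the intervals fare where few spots hold most UMIs. Alternatives were 100 or 200 spots, UMI minimums 20% lower or higher, rankings without each gene or by mean rank, other scalings and CPM minimums, remaining spots of like depth, and no spots rich in other tissues. Chosen after seeing the data were spots of like matrix share, a common share minimum, and leaving out skin-rich or Myh11-rich spots. Python 3.11.15, numpy 2.4.6, scipy 1.17.1, pandas 2.3.3 and matplotlib 3.10.9 were used.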

Additional observations from a re-analysis of the deposited data

Results flagged for a closer look

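Among named genes with at least 10 CPM in both comparisons, the ratio of top-ranked over remaining spots was past 2-fold in opposite directions in the 2 sections for 2 genes. Ankrd1 was 0.0691 in Blank, on 3 UMIs, and 6.91 in Col_nHA. In Blank, 10 of the remaining spots held 37.8% of their Ankrd1 UMIs. Whether those spots were rich in skeletal muscle or other tissues was not examined. Cxcl5 was 0.186 in Blank and 2.10 in Col_nHA. Thinned to 3000 UMIs, the Col_nHA shares of spots with a Cxcl5 UMI had overlapping intervals, at 24% of top-ranked and 17.3% of remaining spots. With 1 library per group these differences were not tested. Below that CPM minimum in Blank, Cxcl1 also ran in opposite directions, at 0.111 on 2 UMIs and 2.64.

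Barcodes below the UMI minimum, which entered no comparison, also held UMIs of the ranking genes, 0.0517% of their UMIs in Blank and 0.101% in Col_nHA. The share pooled over the remaining kept spots was 0.0586% and 0.101%. Thinned to 1000 UMIs, with 1019 Blank and 617 Col_nHA barcodes too shallow to enter, 30.3% of these barcodes held an Acta2 UMI in Blank and 47.5% in Col_nHA, against 29.1% and 43.9% of the remaining and 79.3% and 94.0% of the top-ranked spots.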

How the results depend on the processing

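Of the alternative counts of genes past 2-fold, 93 stayed within 1.5 times of the reported count and 21 did not. For genes higher in the top-ranked Blank spots (48), the count was 30 when ranked without Acta2, 97 with median-of-ratios scaling, 3944 with no CPM minimum, 15 at 50 CPM and 31 against spots of like matrix share. For those lower in Blank (792) it was 2270 with no minimum, 223 at 50 CPM and 440 against like spots. In Col_nHA the higher count (161) was 107 with median-of-ratios scaling, 4520 with no minimum, 53 at 50 CPM, 107 without spots rich in other tissues and 46 against like spots, and the lower count (645) was 1834, 232 and 304 with no minimum, at 50 CPM and against like spots. Between sections the higher count (708) was 2112 and 208, and the lower count (294) 2028 and 81, with no minimum and at 50 CPM, and the lower count was 192 with a common share minimum. Dropping the minimum adds genes of few UMIs and raising it leaves fewer genes tested; the cause of the other shifts was not tested.

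Of the values for lists, named genes and shares of spots, 9680 stayed within the interval or range of the reported value and 1732 lay outside it. A further 23 that were past 2-fold changed sign, all on the log2 scale. In Blank, without spots rich in other tissues, the choroid plexus list was 0.69, Ttr 0.93, Enpp2 0.47 and Clic6 0.47, and against spots of like matrix share the list was 0.37, Ttr 0.37 and Enpp2 0.17. Without the 10 Myh11-rich spots Myh11 was -0.76. In Col_nHA, Des was 0.65 without spots rich in other tissues, and against like spots Des was 0.70, Synpo2 0.30, Ttn 0.31, Ckm 0.55, Acta1 0.27, Myh4 0.81, Lgals7 0.12 and the skeletal muscle list 0.36. Between sections, Ttn was -1.52 and Ckm -0.87 and Bglap 0.30 when ranked by mean rank, Ttn -0.21 without spots rich in other tissues and -0.10 without the Myh11-rich spots, and S100a8 -0.031 with the mean of per-spot CPM. The cause of these changes was not tested. No paired analysis was possible because each group had 1 library. Depth limits Ankrd1, Il6 and Cxcl1 most in Blank, with 3, 0 and 2 UMIs in its 150 top-ranked spots.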
